A study of Mus musculus with 7 samples.

Results

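AP-1, EGR and other immediate early genes were followed in LSK cells of mouse bone marrow with and without the kinase gene Lkb1. The set was the list Fos, Fosb, Jun, Junb, Jund, Egr1, Ier2, Dusp1, Dusp2 and Zfp36, and every probe set whose only gene symbol in the platform annotation was one of these was taken, which gave 11 probe sets of 22690 for all 10 genes. Jun had 2 probe sets and each other gene 1. LSK (Lin-, Sca-1+, c-Kit+) is the sort gate for blood stem cells together with their earliest progeny. The Lkb1 KO group had 4 samples (numbers 4 to 7) from adult Lkb1 L/L, rosa26CreERT2 mice, in which Cre is made from the Rosa26 locus and becomes active with tamoxifen. The Lkb1 WT group had 3 samples (numbers 5 to 7) from Lkb1 L/L mice, which have the floxed gene and no Cre. The strain was C57BL/Ka-CD45.2:Thy-1.1 throughout, both groups received tamoxifen over 5 days, and LSK cells of femur and tibia were sorted 1 day after the last dose. Cre was present in the KO group alone and acts in other tissues as well, so loss of Lkb1 in LSK cells, in other cells, and Cre activity itself cannot be told apart. The sex and exact age of the mice, and whether a sample was 1 mouse, were not stated, so p-values reflect only how far these samples differ from each other, a spread that may be technical.

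Immediate early genes are transcribed within minutes of a growth factor, cytokine or stress signal, without new protein synthesis, largely through MAP kinases acting on SRF, its ETS partners and CREB at the promoter. Fos and Jun family proteins pair through leucine zippers to form AP-1, and Egr1 is a zinc finger transcription factor of the same wave. Dusp1 and Dusp2 are nuclear phosphatases that switch MAP kinases off, and Zfp36 (tristetraprolin) binds AU-rich mRNAs and speeds their decay, so these genes are part of the feedback that ends the response. In blood stem cells, Jun family genes and Egr1 are known for their part in restraining proliferation. LKB1 phosphorylates and activates AMPK and the salt-inducible kinases, and the latter hold CRTC coactivators of CREB in the cytoplasm.

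Sequence upstream of the transcription start is shown for 5 of these genes, Fos, Jun, Dusp1 and Zfp36, which varied together between arrays, and Dusp2, which did not. Each is the 250 bases before the start in the RefSeq annotation of GRCm38.p6, and 8 of the 10 genes had such a sequence. Capitals mark matches to the CRE (TGACGTCA), its short form (TGACG), the AP-1 site (TGANTCA), the AP-1-like site known from Jun (TGACATCA), the EGR site (GCGNGGGCG), the SRF-bound CArG box, each on both strands, and the TATA box (TATAAA) on the given strand. The CRE contains the short form on both strands, so 1 CRE also counts as 2 short forms.
Fos, chr12:85473640-85473889, + strand: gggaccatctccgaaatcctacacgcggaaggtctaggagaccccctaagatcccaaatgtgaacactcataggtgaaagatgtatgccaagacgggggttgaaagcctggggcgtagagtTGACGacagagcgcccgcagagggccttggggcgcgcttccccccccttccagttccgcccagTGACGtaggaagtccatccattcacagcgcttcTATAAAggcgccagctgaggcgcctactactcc
Jun, chr4:95052223-95052472, - strand: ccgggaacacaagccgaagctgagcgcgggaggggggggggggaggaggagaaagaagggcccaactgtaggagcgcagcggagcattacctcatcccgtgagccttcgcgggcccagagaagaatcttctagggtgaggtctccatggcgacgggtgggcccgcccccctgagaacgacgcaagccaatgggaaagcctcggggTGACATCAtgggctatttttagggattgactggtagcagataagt
Dusp1, chr17:26508473-26508722, - strand: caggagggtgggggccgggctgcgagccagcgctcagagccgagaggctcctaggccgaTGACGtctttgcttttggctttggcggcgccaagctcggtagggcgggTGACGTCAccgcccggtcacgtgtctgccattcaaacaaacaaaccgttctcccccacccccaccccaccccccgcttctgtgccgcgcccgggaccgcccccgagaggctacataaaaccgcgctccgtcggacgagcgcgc
Zfp36, chr7:28379229-28379478, - strand: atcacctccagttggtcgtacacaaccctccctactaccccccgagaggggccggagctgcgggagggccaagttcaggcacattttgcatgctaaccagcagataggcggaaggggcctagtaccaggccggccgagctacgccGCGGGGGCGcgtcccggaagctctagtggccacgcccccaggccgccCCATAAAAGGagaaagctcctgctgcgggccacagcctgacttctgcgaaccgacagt
Dusp2, chr2:127335909-127336158, + strand: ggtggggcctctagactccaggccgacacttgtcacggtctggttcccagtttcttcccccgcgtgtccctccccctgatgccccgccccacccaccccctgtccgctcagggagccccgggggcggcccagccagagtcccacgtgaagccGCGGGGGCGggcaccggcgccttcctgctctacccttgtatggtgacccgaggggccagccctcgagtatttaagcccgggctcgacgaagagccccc

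The 5 upstream sequences held different motifs. Fos had short CRE sites at -129 and -66 and a TATA box at -33, counted from the start site to the first base of the match. Dusp1 had a full CRE at -143 and a further short CRE site at -191. Jun had the AP-1-like site at -45. Zfp36 had a CArG box at -58 and an EGR site at -105, and Dusp2 had an EGR site at -98 and no other motif searched. Among all 32841 upstream sequences of this length, 17.8% held a short CRE site, 1.55% a CRE, 6.75% an AP-1 site, 2.93% the AP-1-like site, 4.7% an EGR site, 1.47% a CArG box and 7.59% the TATA box. Of the 8 sequences for these genes, 4 held a short CRE site, 3 an EGR site, 1 each a CRE, the AP-1-like site, a CArG box and a TATA box, and none an AP-1 site. A match describes the letters in this window and shows no binding.

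Values below are log2(signal + 16) after quantile normalization of the 7 arrays, and differences are KO minus WT on that scale, which understates changes of dim genes. A gene was called when its adjusted p from limma (Benjamini-Hochberg over all 8077 genes tested) was under 0.05. Before normalization the KO arrays were brighter, with trimmed mean signals of 360.4 to 425.9 against 228.6 to 340.5 in WT, and tested genes were shifted upward by a median of 0.34 log2 units. Directions are therefore relative to the typical gene. Stk11, the gene of Lkb1, was at 6.84 ± 0.33 in the 4 KO arrays and 7.40 ± 0.24 in the 3 WT arrays (mean ± SD), a difference of -0.56 (limma adjusted p = 0.117) with overlapping groups, and where its probe sets lie relative to the deletion is not known here. Of 10 named LSK and stem cell markers, 9 exceeded the background level of 13.64 signal units on every array, Mecom being the exception, and Ly6a, which encodes Sca-1, had no probe set named here. Of 6 T and NK cell genes none exceeded it on every array, and Cd3e and Cd3g on no array, while Cd8a did on 3 KO and 2 WT arrays and Cd3d on 2 and 2. Of 4 B cell genes Cd79b and Ms4a1 exceeded it on every array, and Cd79a and Pax5 on none. Of 6 endothelial and stromal genes Tek exceeded it on every array, and Col1a1 on none. Control probe sets for Actb gave a 3' to 5' signal ratio of 11.41 to 12.29 in KO and 12.6 to 13.11 in WT.

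Of the 8 members bright enough to be tested, Dusp2 alone was called, and it was lower in KO. The differences of 6 others, Egr1, Dusp1, Zfp36, Ier2, Fos and Jund, lay below 0 and that of Jun above 0, none of them past the threshold. Fosb and Junb lay below the filter. Over all genes tested, 5.41% were called and 2.95% were called lower, so 1 call among 8 is a single gene and no result about the set. The median difference of the 8 was -0.37, beside -0.02 over all genes, and 7 of 8 lay below 0 beside 52.4% of all genes. Without KO 5 that median was -0.17 with 5 of 8 below 0, and in the signals as deposited it was -0.02 with 4 of 8 below 0. RNA came from whole sorted populations, in which fewer cells of a type and less RNA per cell cannot be told apart.

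**Figure D1:**
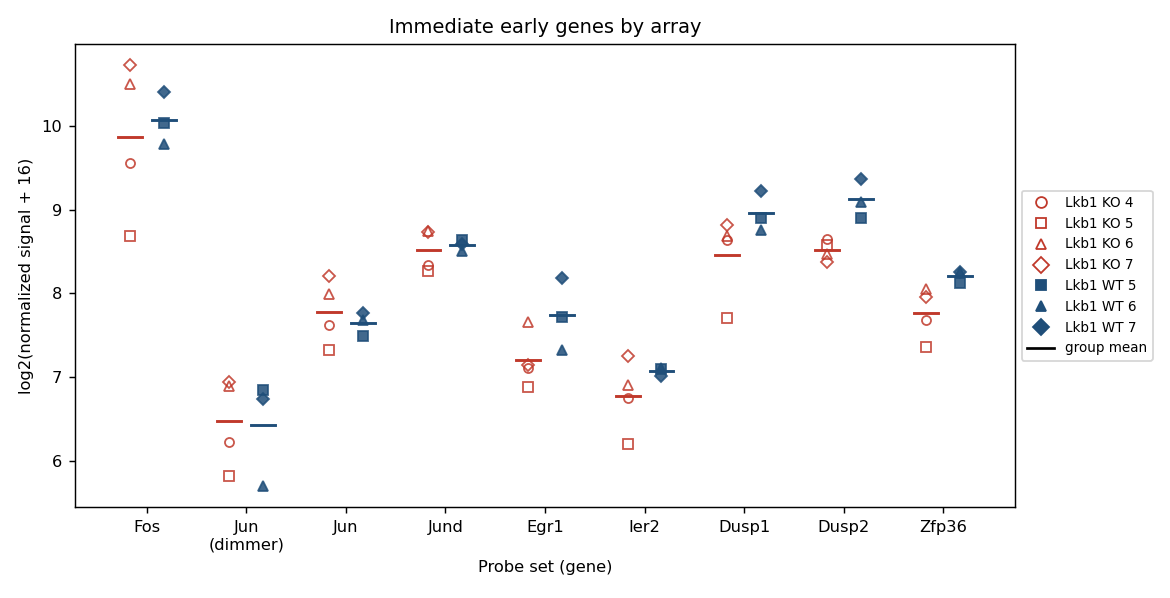
Normalized values, log2(signal + 16), of the 9 probe sets above the filter, in 4 Lkb1 KO arrays (open red) and 3 Lkb1 WT arrays (filled blue); the marker shape gives the sample number and the bar the group mean. Values are to be compared within a probe set, not between them. Dusp2 and Zfp36 do not overlap between groups, and KO 5 is the lowest KO array for 8 of the 9 probe sets.

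Fos, which encodes the AP-1 subunit c-Fos, varied more among the KO arrays than any other member. Its normalized values were 9.56, 8.68, 10.50 and 10.72 across KO 4 to 7, against 10.03, 9.78 and 10.41 across WT 5 to 7. The WT arrays lay inside the KO range, with KO 4 and KO 5 below all of them and KO 6 and KO 7 above. The highest and lowest KO arrays stood 4.13-fold apart on this scale, against 1.54-fold in WT. The difference was -0.21 ± 0.45 (SE), with a 95% interval from -1.25 to 0.83 (limma adjusted p = 0.813). The interval holds sizeable changes in both directions. Without KO 5 the difference turned to 0.19 (limma adjusted p = 0.753), and it was 0.23 in the signals as deposited.

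Jun encodes c-Jun, the main AP-1 partner of the Fos proteins. Its brighter probe set read 7.62, 7.32, 7.99 and 8.21 across KO 4 to 7, against 7.49, 7.68 and 7.76 across WT 5 to 7. KO 5 was again the lowest of all arrays and KO 7 the highest, and the difference was 0.14 ± 0.20 (SE; 95% interval -0.33 to 0.60, limma adjusted p = 0.714). The dimmer probe set gave 6.22, 5.82, 6.90 and 6.94 in KO and 6.84, 5.70 and 6.74 in WT. Its lowest array was WT 6, and it differed by 0.05 (limma adjusted p = 0.954 over 13575 probe sets, of which 4.03% were called). Jund, the family member known for steady expression, read 8.34, 8.27, 8.74 and 8.74 in KO and 8.64, 8.51 and 8.58 in WT. Both KO 4 and KO 5 lay below the WT arrays and KO 6 and KO 7 above them, so that the means differed by only -0.06 ± 0.14 (SE; 95% interval -0.38 to 0.27, limma adjusted p = 0.843). Its sign depended on the scaling, at 0.33 in the signals as deposited and 0.07 with median centring, and it turned to 0.01 without KO 4 and 0.03 without KO 5. That of Jun turned to -0.0046 without KO 7.

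Fosb and Junb, the remaining AP-1 members of the set, were close to background. Fosb had deposited signals of 20.5, 16.6, 18.4 and 19.6 in KO and 13.1, 20.9 and 10.8 in WT, above 13.64 on 4 of 4 KO arrays and 1 of 3 WT arrays. Its normalized values overlapped (exact permutation p = 0.543, two-sided, over 35 splits, where the smallest possible is 0.0286). Junb had deposited signals of 19.3, 16.2, 6.8 and 1.3 in KO and 10.7, 2.2 and 3.4 in WT. These exceeded the background on 2 KO arrays and on no WT array, and the groups overlapped after normalization (exact permutation p = 0.457). The background level was applied to deposited signals, which were brighter in KO, so counts above it can be raised in KO for both genes. Both group means of Junb, 10.9 and 5.43, lay below background, so no fold is given.

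Egr1, a transcription factor induced by growth factors and known for restraining stem cell division, averaged 7.20 with an SD of 0.33 in 4 KO arrays, and 7.74 with an SD of 0.43 in 3 WT arrays. Its arrays read 7.11, 6.88, 7.66 and 7.15 across KO 4 to 7, against 7.72, 7.32 and 8.18 across WT 5 to 7. KO 4, KO 5 and KO 7 lay below all WT arrays and KO 6 did not. The difference of -0.54 ± 0.23 (SE) had a 95% interval from -1.07 to -0.0048 and did not pass over all genes (limma adjusted p = 0.193). It was -0.32 without WT 7, -0.19 in the signals as deposited and -0.0718 with the Actb ratio as a covariate. Ier2, a small nuclear protein gene of the same early wave, read 6.75, 6.20, 6.91 and 7.25 in KO and 7.09, 7.11 and 7.01 in WT. The WT arrays were close together inside a wider KO range. The difference was -0.29 ± 0.22 (SE; limma adjusted p = 0.431), fell in size to -0.10 without KO 5, and was 0.02 in the signals as deposited.

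The feedback genes gave the one call. Dusp2 encodes the phosphatase PAC-1, known from blood cells, which acts on MAP kinases in the nucleus. Its normalized values were 8.65, 8.58, 8.47 and 8.37 across KO 4 to 7, against 8.90, 9.10 and 9.36 across WT 5 to 7. Every KO array lay below every WT array and the KO arrays were close together. Dusp2 fell by 0.60 ± 0.13 (SE), to 0.658 of the WT level (95% interval -0.90 to -0.31, limma adjusted p = 0.0375, exact permutation p = 0.0286, the smallest possible). Groups that do not overlap, lower in KO, occurred in 12.7% of all genes tested, and here in Dusp2 and Zfp36.

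The call of Dusp2 was lost under some of the other scalings, though not all, and without any 1 array. Its deposited signals were 482.3, 417.9, 352.2 and 326.3 in KO and 458.2, 468.2 and 410.8 in WT, which overlap, and the difference there was -0.18 (limma adjusted p = 0.527). Since the median gene was 0.34 higher in KO in those signals, Dusp2 lay 0.53 below it, against 0.59 after quantile normalization. With cyclic loess, another scaling, the difference was -0.61 (limma adjusted p = 0.0331), so the call held there. With median centring the difference was -0.45 (limma adjusted p = 0.057), and the call was lost. Without the filter on low values it stayed at -0.60 (limma adjusted p = 0.0843). With the Actb ratio as a covariate, which does not overlap between the groups, it was -0.68 (limma adjusted p = 0.53). In limma's fits that left out 1 array, the adjusted p was 0.064 without KO 4, 0.0697 without KO 5, 0.0813 without KO 6 and 0.0941 without KO 7. It was 0.053 without WT 5, 0.0931 without WT 6 and 0.0862 without WT 7, and the difference stayed between -0.72 and -0.49. Across the groups, summed quantile-normalized signals of 9 granulocyte marker genes were 8652 to 12160 in KO and 25820 to 35350 in WT. All sums given here are of such normalized signals on the linear scale. Sums of the deposited signals are not given, so any separation is relative to that scaling. Those of 10 LSK and stem cell markers were 13550 to 14480 and 16190 to 17110, though Cd48 on that list was called higher (0.47) and Hlf (-0.84) and Kit (-0.43) lower. Sums of 8 monocyte and macrophage genes were 5185 to 8430 in KO and 3326 to 4350 in WT. Of these 8, Ly86 (1.18) and F13a1 (1.42) were called higher and 6 were not called. Those 6 include the brightest, Csf1r (0.75, limma adjusted p = 0.0828), and Cd68, at -0.06. Sums of 4 mast cell and basophil genes were 2106 to 2715 in KO and 1468 to 1545 in WT, and of 5 erythroid genes 318.7 to 446.2 and 586 to 847.5. Those of 6 endothelial and stromal genes were 135.5 to 171.3 and 180.7 to 206.4. Of these 6 only Tek was bright enough to be tested. It was not called (-0.35, limma adjusted p = 0.255) and overlapped between groups. The sums overlapped for megakaryocyte, B cell and T and NK cell genes. Their part in the level of Dusp2, or of the other members, was not tested.

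Dusp1, the phosphatase MKP-1, which is induced along with Fos, read 8.64, 7.70, 8.68 and 8.81 across KO 4 to 7, against 8.90, 8.76 and 9.22 across WT 5 to 7. KO 5 stood far below the other KO arrays, which were close together, and KO 7 exceeded WT 6, so the groups overlapped. The difference was -0.50 ± 0.26 (SE; 95% interval -1.10 to 0.10, limma adjusted p = 0.276), and -0.25 without KO 5 (limma adjusted p = 0.346). Zfp36 read 7.68, 7.36, 8.05 and 7.96 in KO and 8.12, 8.25 and 8.26 in WT. All KO arrays lay below all WT arrays, KO 6 by a narrow margin. The difference of -0.45 ± 0.17 (SE; 95% interval -0.83 to -0.07) did not pass over all genes (limma adjusted p = 0.142), and was -0.31 without KO 5 and -0.06 in the signals as deposited.

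**Figure D2:**
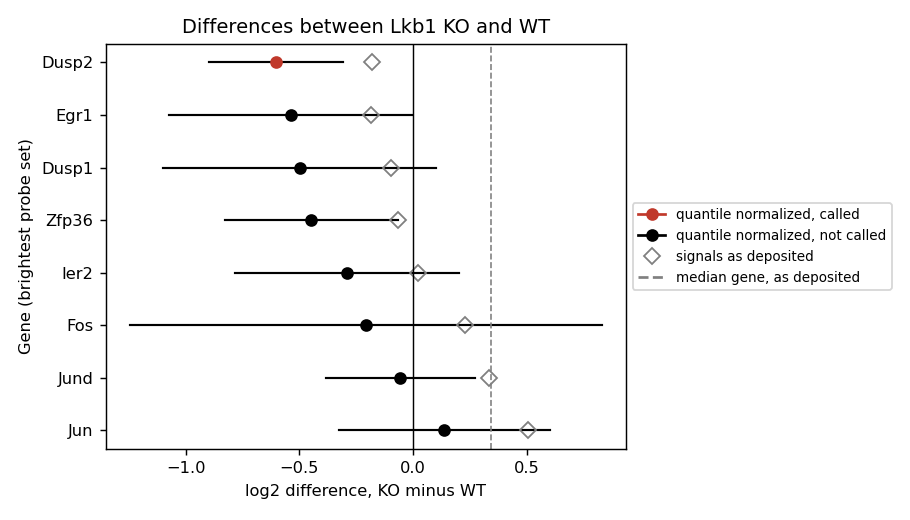
Difference in log2(signal + 16), KO minus WT, for the 8 members tested, with 95% intervals from limma after quantile normalization (circles; red when called) and the same difference in the signals as deposited (open diamonds). The dashed line at 0.34 is the median gene in the signals as deposited. Dusp2, Egr1, Dusp1 and Zfp36 are farthest below 0, and the interval of Fos is the widest.

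In SD pooled over both genotypes, the members other than Dusp2 differed more between arrays of one genotype than most genes did. The within-genotype SD of Fos was 0.75, at the 99.6th percentile of the 8077 genes, whose median was 0.18. Dusp1 followed at 0.42 (percentile 95.4), then Egr1 at 0.37 (92.7), Ier2 at 0.34 (percentile 90) and Jun at 0.32 (87.2). Zfp36 at 0.25 (74.7), Jund at 0.20 (60.6) and Dusp2 at 0.17 (49.7) were nearer to the typical gene. For most members the spread lay mainly in the KO arrays. In WT the SD was 0.05 for Ier2, 0.07 for Jund, 0.08 for Zfp36 and 0.14 for Jun, against 0.44, 0.25, 0.31 and 0.39 in KO. Fos (0.32 in WT, 0.94 in KO) and Dusp1 (0.24 and 0.51) also varied less in WT, and Egr1 (0.43 and 0.33) and Dusp2 (0.23 and 0.12) varied more.

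The members other than Dusp2 rose and dipped together from array to array. After each value was taken as a deviation from its genotype mean, KO 5 lay below for 7 of the 8 members and was the lowest KO array for the same 7, the exception being Dusp2. KO 6 was above for 7 and KO 7 for 6. For Fos the deviations were -0.31 in KO 4, -1.19 in KO 5, 0.64 in KO 6 and 0.86 in KO 7. For Dusp1 they were 0.18, -0.76, 0.22 and 0.35. Among WT arrays, WT 7 was above for 7 of 8 members and the highest for 6. Over the 7 arrays, the 21 pairs of members without Dusp2 had a median Pearson r of 0.841, from 0.282 (Egr1 with Ier2) to 0.944 (Fos with Jun). This is a description only, since genes read on the same array share its brightness and normalization. Pairs with Dusp2 had a median of -0.231, and 1 of 7 was above 0.

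The correlations were lower without KO 5. Without this array the median r of the 21 pairs was 0.655, with 20 above 0 and a lowest value of -0.24. Without KO 5 and KO 6, the arrays farthest from the median, it was 0.749. When each other array was left out it ranged from 0.819 to 0.907. In trimmed mean signal KO 5 was not extreme, at 395.2 within the KO range. Its summed normalized granulocyte signal of 12160 was the highest of the KO arrays, near KO 6 at 11550. Its Actb ratio was 12.1, inside the KO range.

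**Figure D3:**
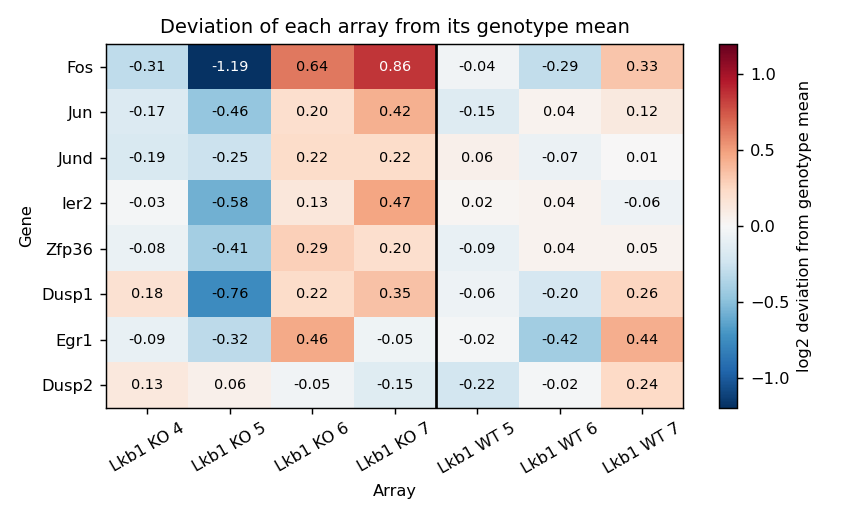
Deviation of each array from its genotype mean, in log2 units, for the 8 members tested (rows) in 4 KO and 3 WT arrays (columns, parted by the black line). KO 5 is below 0 in every row but Dusp2, from -0.25 for Jund to -1.19 for Fos.

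The 5 genes outside the set whose within-genotype deviations were most like the members' mean were Spen (r = 0.994 over 7 arrays), Ppargc1b (r = 0.982), BC003965 (r = 0.981), Yif1a (r = 0.975) and Leprotl1 (r = 0.973). They were picked as the highest of 8068 genes, among which r ran from -0.993 to 0.994, so such values describe a ranking and no shared regulation. Spen encodes a large nuclear RNA-binding corepressor and Ppargc1b a coactivator of mitochondrial genes. Ppargc1b had a KO SD of 0.42 and a WT SD of 0.20, while the other 4 varied less, with KO SDs from 0.06 to 0.17. None of the 5 was called between genotypes.

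Genes related to the set were read from 8 lists covering other AP-1, EGR, phosphatase and ZFP36 family members, other immediate early genes, and the kinases and factors upstream. Of their 113 genes 73 were tested, of which 4 fell and none rose, beside 2.95% called lower and 2.46% called higher over all genes. Differences lay below 0 for 48 of 73 (52.4% over all genes), the median was -0.15, and groups did not overlap in 17 genes lower in KO (12.7% over all genes) and in 1 higher (11.4% over all genes). Without WT 7 the median was -0.08. In the signals as deposited it was 0.19, with 4 of the 73 called higher and 1 lower and 15 below 0, while 11% of all genes were below 0 there.

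Among the other AP-1 genes, 1 of 9 tested fell. Maff, a small MAF protein gene without a transactivation domain, read 6.01, 5.74, 6.08 and 5.74 across KO 4 to 7, against 7.07, 6.67 and 6.86 across WT 5 to 7. All WT arrays lay above all KO arrays, and Maff fell by 0.975 ± 0.14 (SE), to 0.509 of WT (limma adjusted p = 0.017), also in the signals as deposited (-0.70, limma adjusted p = 0.0284). It did not pass without KO 7 (limma adjusted p = 0.0531) or without WT 7 (limma adjusted p = 0.0537). The other 8 were at -0.41 to 0.34, with Mafk at -0.27 (limma adjusted p = 0.137) and Atf2 at -0.27 (limma adjusted p = 0.162), both higher than 0 in the signals as deposited, at 0.12 and 0.15. Of the EGR and NAB genes only the corepressors of EGR proteins were bright enough to be tested, Nab2 at 0.39 (limma adjusted p = 0.391) and Nab1 at -0.17 (limma adjusted p = 0.528). Without WT 5, Nab2 was at 0.0735 and Nab1 at 0.0231.

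The other MAP kinase phosphatases all had differences below 0, from -0.91 to -0.12 in 5 genes tested, and 1 fell. Dusp3, which acts on ERK and JNK, read 7.99, 8.22, 8.37 and 8.21 in KO and 8.54, 8.76 and 8.80 in WT, with no overlap, and fell by 0.51 ± 0.12 (SE; limma adjusted p = 0.0462). It passed in none of the 7 fits without 1 array (limma adjusted p from 0.0603 to 0.121), nor in the signals as deposited (-0.11, limma adjusted p = 0.703). Its other probe set, near background with means of 22.1 in KO and 12.6 in WT, was at 0.41 (exact permutation p = 0.286). Dusp16, a JNK phosphatase, was at -0.91 (limma adjusted p = 0.0579), and Dusp10 at -0.38 (limma adjusted p = 0.0937). Dusp16 passed without KO 5 (limma adjusted p = 0.0344) and in no other fit without 1 array (limma adjusted p from 0.0994 to 0.142).

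In the ZFP36 family, Zfp36l1, like Zfp36 a gene for a protein that promotes decay of AU-rich mRNAs, fell by 0.55 ± 0.10 (SE; limma adjusted p = 0.0251). It read 9.64, 9.72, 9.80 and 9.54 in KO and 10.16, 10.35 and 10.16 in WT, so every KO array was lower. A dimmer probe set of the gene was at 0.22 (exact permutation p = 0.429), and the mean of both was at -0.16 (limma adjusted p = 0.443). Of the 7 fits without 1 array it passed only without KO 6 (limma adjusted p = 0.0444), and in the signals as deposited it was at -0.11 (limma adjusted p = 0.716). Zfp36l2 was at -0.33 (limma adjusted p = 0.183; 0.06 in the signals as deposited).

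Of 24 other immediate early genes, 1 fell, 19 had differences below 0, and the median was -0.25. Klf10, a transcription factor gene induced by TGF-beta, read 9.18, 9.21, 9.14 and 8.98 in KO and 9.65, 9.76 and 9.80 in WT. The groups were well apart, and Klf10 fell by 0.61 ± 0.09 (SE; limma adjusted p = 0.0213). It did not pass without KO 7 (limma adjusted p = 0.061), WT 6 (limma adjusted p = 0.0575) or WT 7 (limma adjusted p = 0.0638), or in the signals as deposited (-0.18, limma adjusted p = 0.532). The kinase gene Sgk1 was at -0.51 (limma adjusted p = 0.057) and Ppp1r15a, whose product directs a phosphatase to eIF2alpha, at -0.46 (limma adjusted p = 0.0594).

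Upstream factors and kinases gave no call. Of 8 SRF, ETS partner and CREB-CRTC genes, 4 were below 0 with a median of -0.07. Elk3, an ETS partner of SRF, was at -0.30 (limma adjusted p = 0.0855; 0.14 in the signals as deposited), the CREB coactivator gene Crtc2 at -0.37 (limma adjusted p = 0.11) and the SRF coactivator gene Mrtfa at -0.29 (limma adjusted p = 0.118; 0.10 in the signals as deposited). Of 13 MAP kinase cascade genes, 7 were below 0 with a median of -0.03, and those of lowest p were Braf at 0.42 (limma adjusted p = 0.179), Map2k1 at 0.19 (limma adjusted p = 0.198) and Map2k4 at -0.27 (limma adjusted p = 0.272; 0.16 in the signals as deposited). Without WT 6, Braf was at 0.21 and Map2k4 at -0.13. Cytosolic heat shock genes, another group of quickly induced genes, had none of 10 called, 5 below 0 and a median of 0.0007. Their lowest p values were those of Dnajb4 at -0.33 (limma adjusted p = 0.121; 0.11 in the signals as deposited), Bag3 at 0.27 (limma adjusted p = 0.416) and Hsph1 at 0.21 (limma adjusted p = 0.484; called higher in the signals as deposited, at 0.64 with limma adjusted p = 0.0328). Bag3 was at 0.11 without KO 6 and 0.13 without WT 7, and Hsph1 at 0.0499 without WT 5 and 0.36 without WT 7. At an unadjusted p under 0.05 limma gave 3 of 8 members and 22 of 73 related genes, beside 25.3% of all genes (13.6% lower in KO). By list these were 4 of 9 other AP-1 genes, 0 of 2 NAB genes, 3 of 5 phosphatase genes, 2 of 2 ZFP36 family genes and 8 of 24 other immediate early genes. The SRF and CREB-CRTC factors gave 3 of 8, the MAP kinase cascade 1 of 13 and heat shock genes 1 of 10.

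**Figure D4:**
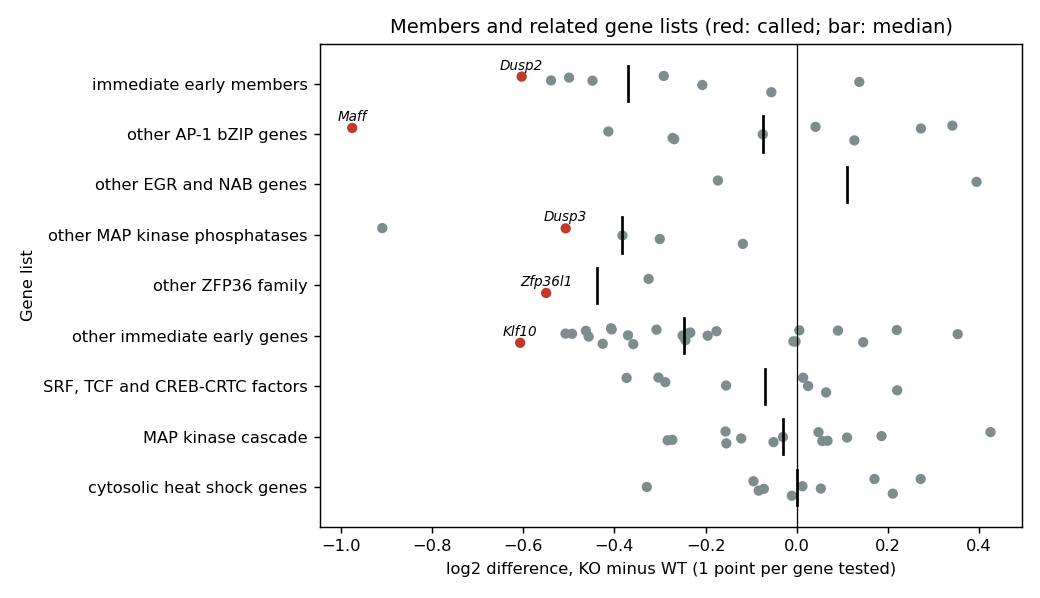
Difference in log2(signal + 16), KO minus WT, of the 8 members tested and of 73 genes on 8 related lists, 1 point per gene, red when called, with the median of each list as a black bar. The 5 called genes, Dusp2, Maff, Dusp3, Zfp36l1 and Klf10, all lie below 0, and the heat shock genes are centred on 0.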

How the data were processed

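RNA of sorted LSK cells (15000 to 20000 per sample, about 10 ng amplified, per the labels' protocols) was measured on 7 one-colour arrays. The labels name a larger Affymetrix mouse design than the 22690 probe sets of the deposited table fit. The deposited table holds 1 linear signal intensity per probe set and array, and the submitters' processing notes name MAS5, with version, scaling target and detection calls not given in the sources used here. Of 22626 non-control probe sets, 20380 had 1 symbol in the platform annotation, 691 several and 1555 none, and 20351 matched the gene table of GRCm38.p6.

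Signals were quantile normalized over non-control probe sets and taken as log2(signal + 16). Genes were represented by their brightest probe set and kept for testing if that probe set exceeded the 40th percentile of mean values, which left 8077. The difference of KO from WT was fitted by limma 3.58.1 under R 4.3.3 (lmFit, eBayes, 5 residual degrees of freedom, Benjamini-Hochberg, threshold 0.05). A second fit over 13575 probe sets served genes with several. For single values an exact permutation test, two-sided, used all 35 splits of the arrays. Background was the 95th percentile of 189 readings of 27 control probe sets for bacterial transcripts. The number of arrays limits the precision.

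The members and lists were chosen with earlier results of these data known, and the motifs with the sequences in view. Named genes were all members, of each related list those past the threshold and otherwise the 3 of lowest p, and the 5 genes most like the members. Markers named as below background were chosen after their values were seen. The fit was tested on simulated data. Alternatives covered scaling, pseudocount, filter, probe sets per gene, prior, array weights, replicate number, Actb ratio and leaving out each array. Whether the replicate numbers pair the samples is not known (see the closing section).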

Additional observations from a re-analysis of the deposited data

Results flagged for a closer look

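Among the 4 KO arrays, 3 of 33 probe sets or genes checked had 1 array far from the others, measured as the gap to its neighbour over the whole range of the group, and chance flags about 1 in 20. Dusp1 had a ratio of 0.843, with KO 5 at 7.70 and the other arrays at 8.64 to 8.81. Dusp10 had a ratio of 0.856, with KO 5 at 6.52 and the others at 6.10 to 6.16, so that the same array was low for one phosphatase gene and high for the other. Elk3 had a ratio of 0.954, with KO 6 at 10.07 and the others at 9.95 to 9.96, a range that is narrow in itself.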

How the results depend on the processing

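Without 1 array, genes called over all genes ranged from 8 to 76 higher (199 with all arrays) and from 35 to 117 lower (238), members called lower from 0 to 0 (1), and related genes called lower from 0 to 4 (4). In the signals as deposited 1372 genes were higher and 43 lower (3.04% of calls lower, against 54.5%), no member was called (0), and 4 related genes were higher and 1 lower. With median centring 545 were higher (23.3% of calls lower), 0 members and 2 related genes were lower. A pseudocount of 64 gave 322 higher and 372 lower, with 7 related genes lower, and no filter gave 18 and 38, with 0 members and 1 related gene lower. The 60th percentile filter gave 356 higher and 355 lower, with 1 member and 6 related genes lower. A trended and robust prior gave 461 higher and 456 lower, with 8 related genes lower. With the Actb ratio as a covariate, which separates the groups, 0 genes passed in either direction in limma, 0 members and 0 related genes among them, and 713 had an unadjusted p under 0.05. Fewer genes passed with the replicate number as a block (0 higher, 1 lower, 0 members, 0 related genes lower), and Dusp2 was then at -0.65 (limma adjusted p = 0.135). The deviations of same-numbered arrays correlated at 0.029, 0.099 and 0.05 over genes for numbers 5, 6 and 7. Differently numbered arrays were not compared in this way, so whether the numbers pair the samples cannot be told.

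Among the genes named, signs changed for some that were not called. Over all 73 related genes, 15 were below 0 in the signals as deposited against 48 after quantile normalization. Named genes that turned in the signals as deposited were Fos (0.23), Jund (0.33), Ier2 (0.0203), Mafk (0.12), Atf2 (0.15), Nab1 (0.27), Zfp36l2 (0.0629), Elk3 (0.14), Mrtfa (0.10), Map2k4 (0.16) and Dnajb4 (0.11). With median centring they were Jund (0.0673) and Nab1 (0.0031), with the replicate block Jund (0.0059), and with the Actb ratio Jun (-0.0193), Jund (0.086), Nab1 (0.0884) and Nab2 (-0.0897). Without 1 array, Fos ranged from -0.49 to 0.19, Jun from -0.0046 to 0.29, Jund from -0.13 to 0.0281 and Nab1 from -0.30 to 0.0231. The cause of these changes was not tested, beyond the upward shift of the deposited KO signals. Egr1, Dusp1, Dusp2 and Zfp36 kept their sign in all 20 alternatives run for each. Dusp2 passed in 8 of its 13 alternatives that keep all arrays and in 0 of 7 without 1.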

Other observations

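Within genotypes, related genes and markers of other cell types varied with or against the members' mean deviation, given here by list over 7 arrays. This is a description only, since genes read on the same array share its brightness and normalization. The median r was -0.044 over 8068 genes outside the set, of which 3757 were above 0. Among related lists it was 0.38 for other AP-1 genes (8 of 9 above 0), 0.371 for other MAP kinase phosphatases (3 of 5, from Dusp10 at -0.883 to Dusp6 at 0.928) and 0.146 for other immediate early genes (14 of 24, from Btg2 at -0.554 to Cebpb at 0.88). It was 0.281 for SRF and CREB-CRTC factors (6 of 8, the highest Crtc2 at 0.794), -0.045 for the MAP kinase cascade (6 of 13) and 0.2 for heat shock genes (8 of 10, from Hspb1 at -0.618 to Hsph1 at 0.831). For the NAB genes the median r was -0.062 (0 of 2) and for the other ZFP36 family genes -0.032 (1 of 2). KO 5, the array farthest below its genotype mean for most members, was also the one that stood apart for Dusp10.

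Among markers the median r was -0.54 for megakaryocyte genes (0 of 5 above 0, the lowest Gp1bb at -0.955) and -0.18 for LSK and stem cell genes (4 of 9, from Meis1 at -0.785 to Procr at 0.655). It was 0.305 for mast cell and basophil genes (3 of 4, the highest Cpa3 at 0.765), 0.16 for monocyte and macrophage genes (4 of 8, the highest Csf1r at 0.624), 0.109 for granulocyte genes (6 of 8) and -0.156 for erythroid genes (1 of 3). Their part in the variation of the members was not tested.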
